A study of Mus musculus with 6 samples.

Results

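The 33 genes described here serve the development of B cells, from committed precursors in the bone marrow to the mature resting cell. They were listed by name as genes known for this lineage. A probe set is the group of short probes that reads a transcript on the array, and it was taken for a gene where the platform annotation gave it exactly 1 symbol and that symbol was on the list. This gave 59 probe sets for 31 of the 33 genes, while Lyn and Cd38 had none and were not analysed here. Among 18193 genes with such a probe set in the whole series, 12326 passed a filter on low signal and were tested. Of the 31 B cell genes 29 were tested, and Rag2 and Cr2 are given by their values only.

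B cells are made in the marrow that fills the spaces of bone. A precursor first cuts and joins the gene segments of its immunoglobulin heavy chain with the recombinase Rag1 and Rag2, and then tests the chain at its surface with a surrogate light chain made of the products of Vpreb1 and Igll1. Cells that pass rearrange a light chain, leave the marrow and gain the surface receptors of mature B cells, of which some return to the marrow.

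The mouse arrays formed a pilot study of gene expression in normal bone at different skeletal sites. Whole bone of adult male mice (24 to 26 g, named Black CD57 in the methods) was ground, and its RNA was hybridised to 6 Affymetrix mouse genome arrays, 2 each for calvaria, mandible and ulna. The calvaria had its sutures removed, the ulna was freed of soft tissue and epiphyses, and the mandible kept its teeth, and the labels name no treatment and no allele. The pilot used 10 mice in 2 groups, but which and how many of them stand behind each array, and any pooling, is not given in the sources used here. P-values therefore measure the spread between single arrays and no more, a spread that may be technical, and precision is limited by how few arrays there are.

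The deposited value is the MAS5 signal, a linear intensity that the authors set on every array so that its 2% trimmed mean was 100. The array medians lay between 30.6 and 33.6. Arrays of one site correlated at 0.952 to 0.956 over the tested probe sets on the log2 scale, and arrays of different sites at 0.797 to 0.862. All 3 sites held bone: the 6 osteoblast genes with a probe set summed to 28072 to 32506 in calvaria and mandible and to 6041 to 6270 in ulna. The 8 tooth genes summed to 57017 and 57596 in mandible and to 2056 to 3810 elsewhere. Skeletal muscle genes (11) summed to 6739 and 6901 in calvaria and to 51930 to 58843 in mandible and ulna. Fewer B cells and less of a transcript in each B cell cannot be told apart in RNA of whole bone.

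In the mandible most of the B cell genes were lower than in both other bones, and calvaria and ulna differed less. A call needed both 2-fold and an adjusted p under 0.05 (limma, Benjamini-Hochberg over all tested probe sets). Between mandible and ulna 16 of the 29 tested genes were called lower (55.2%), where 10.9% of all tested genes were, and 0 were called higher, where 11% of all tested genes were. Between mandible and calvaria 14 of 29 were called lower (48.3%), against 4.01% of all tested genes, and 0 were called higher, against 5.14%. Between calvaria and ulna none of the 29 was called, while 8.36% of all tested genes were called higher and 4.54% lower. The median log2 difference of the 29 genes was -1.18 between mandible and ulna, where the median of all tested genes was -0.08 (0.03 with the scaling as deposited). It was -1.0001 against -0.09 between mandible and calvaria, and -0.06 against -0.05 between calvaria and ulna. Without limma's moderation of the variances, 15 of the 29 were called lower in mandible than in ulna (7.97% of all tested genes in that fit) and 7 lower than in calvaria (1.39% of all). In that fit none was called higher in mandible (7.68% of all against ulna and 2.33% against calvaria), and none was called between calvaria and ulna (4.72% of all higher and 2.64% lower). The 3 comparisons share arrays, so they are not independent of each other.

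With the adjusted p alone and no limit on the fold, 24 were lower in mandible than in ulna (28.1% of all tested genes) and 2 were higher (19.9% of all), namely Ly6d and Foxo1. Against calvaria 23 were lower in mandible (16.2% of all) and 1, Ly6d, was higher (10.5% of all). Calvaria had 8 genes lower than ulna (18.4% of all tested genes) and 4 higher (15.9% of all), shares of 27.6% and 13.8% of the 29 that lie nearer to those of all genes. The 8 lower in calvaria were Cd24a, Ikzf1, Syk, Ms4a1, Btk, Il7r, Dntt and Cd22, and the 4 higher were Blnk, Ly6d, Vpreb3 and Rag1. At an unadjusted p under 0.05 in limma, 10 genes were lower in calvaria than in ulna (24.2% of all tested genes) and 6 higher (20.5% of all), none of them by 2-fold. Without limma's moderation of the variances 9 were lower (19% of all) and 4 higher (16.6% of all), again with none at 2-fold. At the same unadjusted p in limma, 25 genes were lower in mandible than in ulna (32.2% of all), 17 of them by 2-fold, and 2 were higher (23.1% of all), both under 2-fold. Against calvaria 25 were lower in mandible (23.9% of all), 15 of them by 2-fold, and 1 was higher (15.2% of all), under 2-fold. Without moderation 24 were lower and 1 higher in each of these comparisons, where 26.9% and 19.5% of all tested genes were lower and higher against ulna and 18.9% and 12.5% against calvaria.

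**Figure D1:**
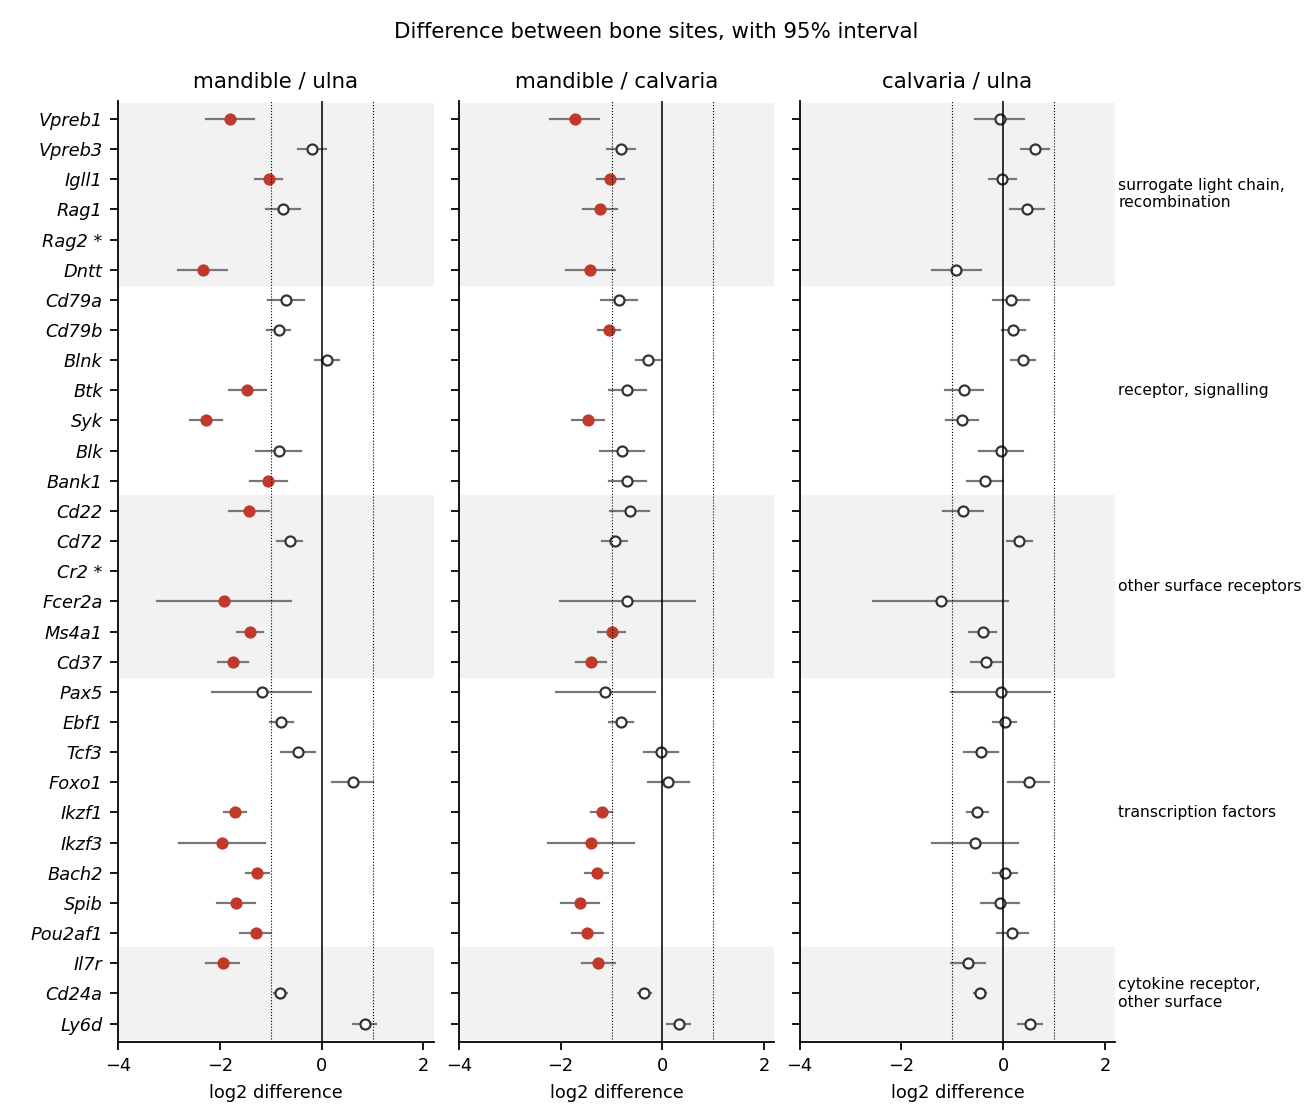
Log2 difference of each B cell development gene for mandible over ulna, mandible over calvaria and calvaria over ulna, with 95% limma intervals as bars, dotted lines at 2-fold and filled points for genes called at an adjusted p under 0.05 and 2-fold. A star marks the untested Rag2 and Cr2. The 16 and 14 called genes all lie left of the dotted line in the first and second panels, and the last panel holds none.

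The genes of the surrogate light chain and of recombination belong to the precursor stages. Vpreb1 encodes the part of the surrogate light chain that stands in for a variable domain. Its signal was 91.6 and 78.2 on the mandible arrays, 209 and 355 on the calvaria arrays and 256 and 288 on the ulna arrays. The mandible arrays lay below all others, while calvaria and ulna overlapped. The mandible was 3.48-fold lower than ulna (log2 difference -1.80, SE 0.22, limma adjusted p = 6.09e-05) and 3.31-fold lower than calvaria (-1.73, SE 0.22, 0.000213). The difference between calvaria and ulna was -0.07 with a 95% interval of -0.55 to 0.41. Probes of Vpreb1 may also bind its near-identical copy Vpreb2, which these values do not separate.

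Igll1 encodes the constant part of the surrogate light chain and stands beside Vpreb1, with 5270 bases between their starts. Its signal was 174 and 153 in mandible, 324 and 321 in calvaria and 329.5 and 293 in ulna. As for Vpreb1, only the mandible stood apart, by a log2 difference of -1.04 from ulna (SE 0.12, limma adjusted p = 4.21e-05) and -1.02 from calvaria (SE 0.12, 0.000133). Both values lie just past 2-fold. Under the authors' scaling alone they were -0.93 and -0.98, without mandible replicate 2 they were -0.96 and -0.94, and without ulna replicate 1 the first was -0.97, so the call was lost there while the adjusted p stayed under 0.05. The design of this probe set allows it to bind other transcripts as well.

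Vpreb3 encodes a relative of Vpreb1 that binds immunoglobulin chains inside the cell. Its pattern was another one: 196 and 178 in mandible and 203 and 189 in ulna, but 299.9 and 338 in calvaria. Calvaria was higher than ulna by 0.62 (SE 0.12, limma adjusted p = 0.00323) and mandible lower than calvaria by -0.81 on the log2 scale (0.000852), both under 2-fold. Between mandible and ulna the difference was -0.18 (-0.46 to 0.09).

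Rag1 and Rag2 together form the recombinase, and their starts lie 24821 bases apart. Rag1 had a signal of 137 and 141 in mandible, 281 and 355 in calvaria and 240.3 and 195 in ulna. No 2 sites overlapped, with calvaria highest and mandible lowest. Mandible was 2.34-fold lower than calvaria (log2 difference -1.22, SE 0.15, limma adjusted p = 0.0002), and lower than ulna by less than 2-fold (-0.75, SE 0.15, 0.00215). Calvaria was higher than ulna by 0.47 (SE 0.15, 0.0388), again under 2-fold. Rag2 lay below the median of every array and was not tested. Its signal was 3.2 and 4.62 in mandible against 22.5 and 23.3 in calvaria and 24 and 24.8 in ulna. When the filter on low signal was dropped, Rag2 was called lower in mandible than in both other bones.

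Dntt encodes the terminal transferase that adds bases at the joints of the gene segments. Its signal was 52.1 and 55.6 in mandible, 112 and 175 in calvaria and 280.1 and 226 in ulna, and no 2 sites overlapped. The mandible was 5.07-fold lower than ulna (log2 difference -2.34, SE 0.22, limma adjusted p = 8.85e-06). With each gene read from its brightest tested probe set, this was the largest difference of this comparison among the tested B cell genes. Against calvaria the mandible was lower by 2.67-fold (-1.42, SE 0.22, 0.000835). Calvaria lay below ulna by less than 2-fold (-0.92, SE 0.22, 0.00843), and passed 2-fold without calvaria replicate 2 (-1.25) or ulna replicate 2 (-1.07). All 3 tested probe sets of Dntt were called lower in mandible than in ulna and in calvaria. The size differed, since the other probe sets gave -2.40 and -1.21 against ulna and -1.87 and -1.11 against calvaria. The probe set with -2.40 and -1.87 read 24.0 and 10.6 in mandible, below the median of both arrays. It passed the filter on low signal through the other bones alone, so its calls are not independent of that filter. The design of the probe set that stands for Dntt allows it to bind other transcripts as well. The 3 probe sets parted between calvaria and ulna, where the other probe sets gave -0.54 (adjusted p = 0.36) and -0.10 (0.74).

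The promoter letters of the precursor genes called lower in mandible than in calvaria are shown next, for Vpreb1, Igll1, Rag1 and Dntt. Ebf1, Tcf3 and their relatives bind such genes, and the capitals mark 2 strings that were searched on both strands, CCCNNGGG, a core of Ebf1 sites, and CAGGTG, an E box (CACCTG on the other strand). The sequences are the 250 bases before the annotated start in RefSeq, build GRCm38.p6, written 5′ to 3′, with Dntt on the plus strand and the others on the minus strand. They cover chr16:16869256-16869505 for Vpreb1, chr16:16863986-16864235 for Igll1, chr2:101649533-101649782 for Rag1 and chr19:41029025-41029274 for Dntt.
Vpreb1: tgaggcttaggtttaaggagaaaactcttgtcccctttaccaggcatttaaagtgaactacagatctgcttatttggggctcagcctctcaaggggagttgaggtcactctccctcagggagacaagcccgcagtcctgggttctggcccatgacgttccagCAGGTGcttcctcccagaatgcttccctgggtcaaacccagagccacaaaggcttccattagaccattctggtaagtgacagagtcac
Igll1: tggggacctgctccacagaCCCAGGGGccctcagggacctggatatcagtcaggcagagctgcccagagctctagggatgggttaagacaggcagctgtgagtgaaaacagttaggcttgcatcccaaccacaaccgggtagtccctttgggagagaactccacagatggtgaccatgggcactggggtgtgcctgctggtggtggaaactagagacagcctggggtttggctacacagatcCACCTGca
Rag1: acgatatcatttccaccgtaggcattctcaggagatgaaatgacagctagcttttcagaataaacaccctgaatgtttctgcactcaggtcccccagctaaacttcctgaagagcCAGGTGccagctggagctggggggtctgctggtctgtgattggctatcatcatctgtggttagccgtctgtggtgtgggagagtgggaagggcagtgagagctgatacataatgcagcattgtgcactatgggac
Dntt: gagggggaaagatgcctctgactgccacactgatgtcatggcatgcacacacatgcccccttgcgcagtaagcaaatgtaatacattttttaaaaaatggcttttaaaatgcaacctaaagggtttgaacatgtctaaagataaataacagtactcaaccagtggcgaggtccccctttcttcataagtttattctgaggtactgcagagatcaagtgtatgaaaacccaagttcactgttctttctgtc
An E box began 88 bases before the start of Vpreb1, 135 before that of Rag1 and 8 before that of Igll1. Igll1 also held CCCAGGGG, 231 bases before its start. The bases shown for Dntt held neither string. RefSeq gave a window from 250 bases before to 50 after a start for 26 of the 33 genes, and 11 of the 26 held CAGGTG, as did 22.6% of all 27025 genes with a window. CCCNNGGG was found in 6 of the 26, against 15.4% of all genes, and the octamer ATTTGCAT, read by Pou2f factors with Pou2af1, in 2, Vpreb3 and Blnk, against 1.97%. TGTTTAC, a Foxo1 string, was in 0 of the 26 and in 4.05% of all genes. A match describes letters and is not a bound site.

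**Figure D2:**
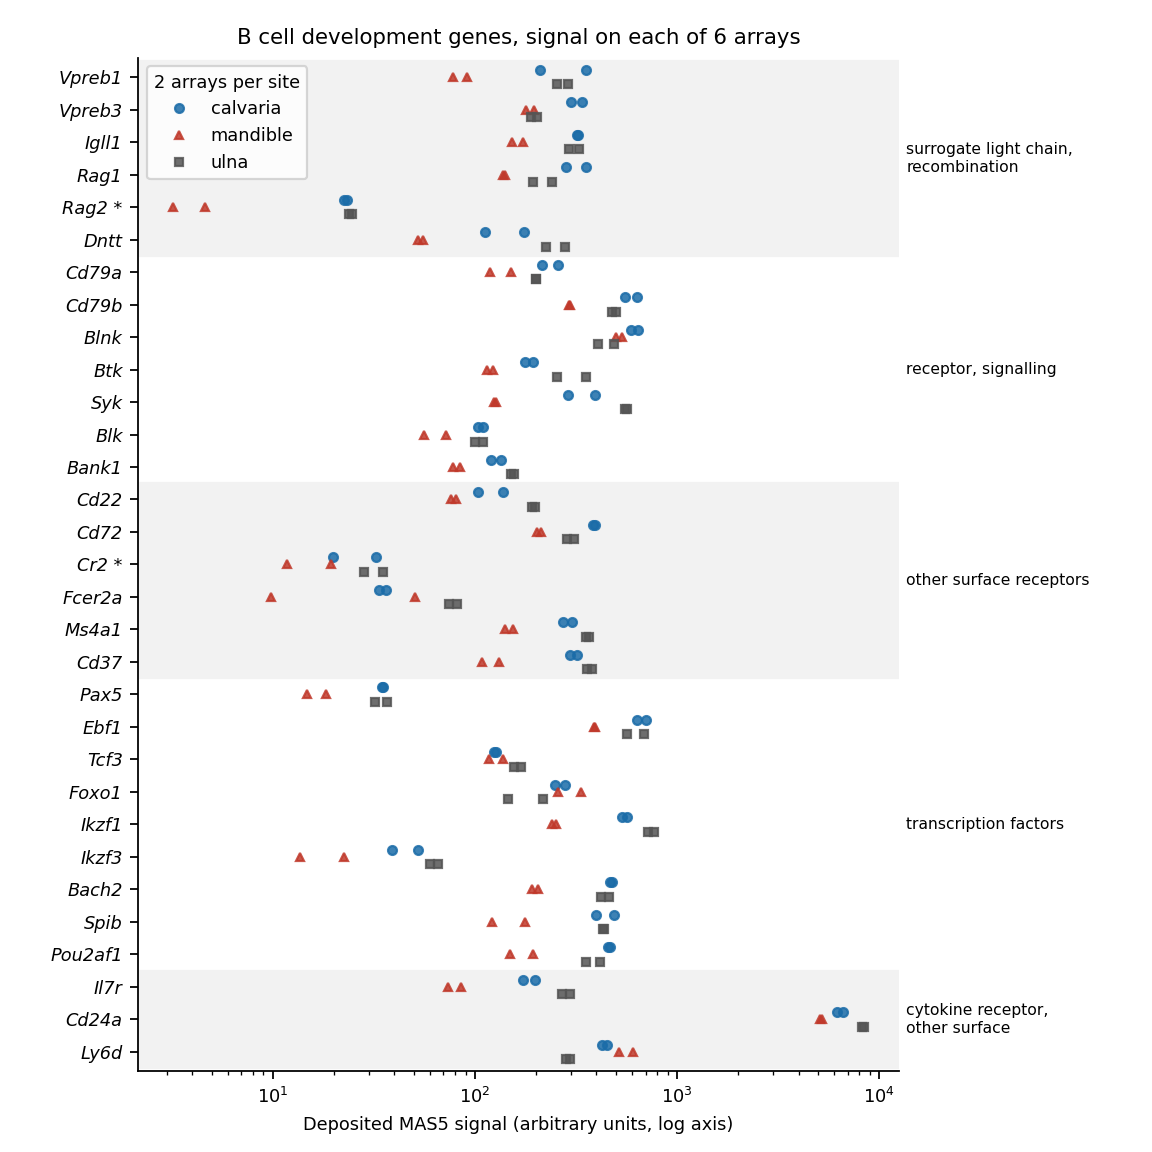
Deposited MAS5 signal on a log axis for the 31 B cell development genes with a probe set, with 1 point for each array (2 each of calvaria, mandible and ulna) and genes grouped by role, where a star marks the untested Rag2 and Cr2. The mandible points lie left of the others for Vpreb1, Igll1, Rag1 and Dntt, and right of them for Ly6d.

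The receptor pair and its kinases carry the signal of the pre-B cell and B cell receptors. Cd79a and Cd79b encode the chains that span the membrane beside the immunoglobulin. Cd79a had a signal of 118 and 152 in mandible, 215 and 259 in calvaria and 201 and 202 in ulna. Cd79b read 297 and 293 in mandible, 553 and 635 in calvaria and 479 and 499.9 in ulna. In both genes the mandible was lowest and calvaria highest with no overlap. Mandible was lower than ulna by -0.70 (SE 0.16, limma adjusted p = 0.00452) for Cd79a and -0.85 (SE 0.10, 5.62e-05) for Cd79b on the log2 scale, under 2-fold. Against calvaria Cd79b passed 2-fold (-1.05, 3.48e-05) and Cd79a did not (-0.86, 0.00296). These calls turned on single arrays, since Cd79b gave -0.95 without calvaria replicate 2 and Cd79a -1.05 without mandible replicate 2.

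Syk is the kinase that binds the phosphorylated receptor chains, and it also works in myeloid cells. Its signal was 128 and 124 in mandible, 288 and 394 in calvaria and 568 and 556 in ulna, so the sites formed 3 separate steps. Mandible was 4.84-fold lower than ulna (log2 difference -2.27, SE 0.14, limma adjusted p = 4.82e-07) and 2.75-fold lower than calvaria (-1.46, 3.89e-05). Calvaria lay -0.81 from ulna (SE 0.14, 0.00145), and -1.04 without calvaria replicate 2. A second probe set of Syk was called lower in mandible than in ulna (-1.18) and reached only -0.69 against calvaria. One more, with a signal of 34.8 and 43.0 in calvaria and 105 and 117 in ulna, was called lower in calvaria than in ulna (-1.60, adjusted p = 0.0092).

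Btk, the Tec family kinase downstream of Syk, had a signal of 123 and 115 in mandible, 178 and 195 in calvaria and 256 and 354 in ulna. The order was that of Syk, and again no sites overlapped. Mandible was 2.75-fold lower than ulna (log2 difference -1.46, limma adjusted p = 4.05e-05), while its difference from calvaria (-0.69, 0.0126) and that of calvaria from ulna (-0.77, 0.0051) were under 2-fold. Without ulna replicate 1 the last was -1.01 and was called. Bank1, a scaffold of B cell receptor signalling, fell in the same order with 77.7 and 84.6, 134 and 121 and 157 and 152. It was called lower in mandible than in ulna (-1.04, 0.00038), close to the limit, and was under 2-fold with the deposited scaling (-0.93) or without mandible replicate 1 (-0.97).

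Blk, a Src family kinase of B cells, had a signal of 71.6 and 55.8 in mandible, 109.5 and 104 in calvaria and 109.7 and 100.2 in ulna. Mandible was lower than ulna by -0.85 (0.00518) and than calvaria by -0.80 (0.0144) on the log2 scale with limma's adjusted p in brackets, both under 2-fold, although the first was -1.02 without mandible replicate 1. Blnk, the adaptor that links Syk to Btk, did not follow the other signalling genes. Its signal was 502 and 534 in mandible, 591 and 639.9 in calvaria and 487 and 405 in ulna. Calvaria was above ulna (0.39, 0.0167, under 2-fold), and mandible differed from ulna by 0.10 (95% interval -0.13 to 0.34) and from calvaria by -0.29 (-0.52 to -0.06).

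The other surface receptors include the genes of mature B cells. Ms4a1 encodes CD20, which appears on late precursors and stays on mature cells. Its signal was 154 and 141 in mandible, 302 and 272 in calvaria and 354 and 367 in ulna, with no overlap between sites. Mandible was 2.65-fold lower than ulna (log2 difference -1.41, SE 0.12, limma adjusted p = 4.01e-06). Against calvaria it stood at the limit of 2-fold (-1.0001, SE 0.12, 0.000141) and was under it with the deposited scaling (-0.96), without calvaria replicate 1 (-0.93) or without mandible replicate 2 (-0.94). The second probe set of Ms4a1 gave -1.25 there and -1.39 against ulna, both called. Calvaria was below ulna by -0.41 (0.0238), under 2-fold.

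Fcer2a encodes CD23, the low affinity receptor for IgE on mature B cells, and it had the largest SE of the tested B cell genes. The signal was 50.4 and 9.84 in mandible, 36.4 and 33.5 in calvaria and 74.2 and 81.3 in ulna. One mandible array lay above both calvaria arrays and the other below them, and the ulna was highest. The call of mandible below ulna (-1.92, SE 0.60, limma adjusted p = 0.0236) was lost without mandible replicate 2 (-0.75, adjusted p = 0.097), ulna replicate 1 (0.0763) or ulna replicate 2 (0.101). The differences of mandible from calvaria (-0.69, 95% interval -2.01 to 0.63) and of calvaria from ulna (-1.23, -2.55 to 0.09) did not pass, although the first was -1.86 (adjusted p = 0.0155) without mandible replicate 1. Cr2, which encodes the complement receptor CD21, was above the array median on 1 of 6 arrays and was not tested. It read 19.4 and 11.8 in mandible, 32.3 and 19.8 in calvaria and 35.3 and 28.2 in ulna, and the calvaria values overlapped those of ulna while the mandible values lay just below them.

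Cd22, an inhibitory receptor that binds sialic acid, had a signal of 76.2 and 81.2 in mandible, 137 and 104 in calvaria and 193 and 198 in ulna. It was 2.7-fold lower in mandible than in ulna (log2 difference -1.43, limma adjusted p = 7.35e-05), with calvaria between them and under 2-fold from each (-0.79 from ulna, 0.00646). Cd37, a tetraspanin of lymphocytes, was lower in mandible, at 132 and 108, than in calvaria (322 and 295) and ulna (359 and 379). Both differences were called (-1.41, 2.74e-05, and -1.74, 1.82e-06), but the second probe set of Cd37 gave -0.81 against ulna and -0.60 against calvaria. Cd72, another inhibitory receptor, read 204 and 213 in mandible, 386 and 392.5 in calvaria and 284 and 309.8 in ulna. Its order put calvaria above ulna (0.31, 0.0524), and mandible was below both by less than 2-fold (-0.94 and -0.63).

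Most transcription factors of the lineage were lower in mandible, and some by less than 2-fold. With the adjusted p alone, 7 of the 9 tested were lower than in ulna and 6 lower than in calvaria (28.1% and 16.2% of all tested genes). By the same measure 1, Foxo1, was higher than in ulna (19.9% of all). With the 2-fold limit 5 were called lower in mandible than in ulna (10.9% of all), namely Ikzf1, Ikzf3, Bach2, Spib and Pou2af1, and these were also the 5 called lower than in calvaria (4.01% of all). Ikzf1 (Ikaros), needed from the first lymphoid progenitors on, read 242 and 253 in mandible, 535 and 568 in calvaria and 719 and 767 in ulna. It had the smallest adjusted p of the B cell genes against ulna (-1.70, SE 0.09, limma adjusted p = 2.01e-07) and was also lower than in calvaria (-1.20, 8.62e-06). Its relative Ikzf3 (Aiolos), of later precursors, had low signals of 13.7 and 22.4, 38.9 and 52.5 and 59.8 and 66 in the same order of sites. Both mandible values lay below the array median, so Ikzf3 passed the filter on low signal through the other bones alone. The mandible was 3.89-fold below ulna (-1.96, 0.00178), and the call against calvaria (-1.41, 0.023) was lost without calvaria replicate 1 (0.0501), calvaria replicate 2 (0.154) or mandible replicate 1 (0.102).

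Bach2, Spib and Pou2af1 were lowest in mandible, and none of them passed a test between calvaria and ulna. Bach2, a repressor that holds B cells back from the plasma cell state, had a signal of 206 and 191 in mandible, 479 and 468 in calvaria and 419.6 and 461 in ulna. The mandible differed by -1.27 from ulna (limma adjusted p = 3.65e-06) and -1.30 from calvaria (1.02e-05), while calvaria and ulna overlapped (difference 0.03, 95% interval -0.20 to 0.26). Of the other probe sets of Bach2, the second was called in both comparisons and the last gave -0.60 (adjusted p = 0.057) and -0.73 (0.043). Spib, an Ets factor of B cells and plasmacytoid dendritic cells, read 178 and 121, 396 and 488 and 431 and 438 in mandible, calvaria and ulna. Its differences were -1.68 (1.55e-05) from ulna and -1.62 (5.93e-05) from calvaria. Pou2af1, a coactivator of octamer factors, had 150.0 and 194 in mandible, 454 and 469 in calvaria and 418 and 357 in ulna. That was 2.45-fold below ulna (-1.29, 2.66e-05) and 2.78-fold below calvaria (-1.48, 3.01e-05).

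Pax5 and Ebf1, the factors that commit a precursor to the B lineage, did not pass both limits. Pax5 was near the array median, with 14.8 and 18.4 in mandible, 35.1 and 34.9 in calvaria and 32.2 and 36.8 in ulna. The mandible arrays were the lowest, but the differences of -1.18 from ulna (SE 0.44, limma adjusted p = 0.0504) and -1.13 from calvaria (SE 0.44, 0.0949) missed the threshold on p. The first passed without the trend option of eBayes (adjusted p = 0.00713), without moderation (0.0306), as the mean of the tested probe sets (0.0385) and with quantile normalization (0.0499), and the second without the trend option (0.0212). Ebf1 had the most probe sets and was lower in mandible, at 390.1 and 394, than in calvaria (706 and 636) and ulna (687 and 568) by less than 2-fold (-0.81, 0.000267, and -0.79, 0.000133). Its 3 other tested probe sets gave -0.34 to -0.08 against ulna, none with an adjusted p under 0.05. Ebf1 is also known in stromal and fat cells.

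Tcf3 and Foxo1 are used by many cell types, and neither passed a test between mandible and calvaria. Tcf3, whose E proteins pair on E boxes, read 118 and 137 in mandible, 125 and 127 in calvaria and 168 and 156 in ulna. Mandible was below ulna by -0.47 (0.029) and differed from calvaria by -0.03 (95% interval -0.37 to 0.31). Foxo1, a forkhead factor that sustains Rag genes and Il7r, had 335 and 259 in mandible, 281 and 250.4 in calvaria and 217 and 147 in ulna. It was higher in mandible than in ulna by less than 2-fold (0.61, limma adjusted p = 0.0199), and its 2 other tested probe sets gave 0.35 (0.14) and 0.25 (0.27).

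Il7r encodes the receptor for interleukin 7, the cytokine on which mouse precursors depend. Its signal was 85.7 and 73.8 in mandible, 173 and 198 in calvaria and 269.9 and 296 in ulna, another 3 separate steps. Mandible was 3.85-fold lower than ulna (log2 difference -1.95, SE 0.15, limma adjusted p = 2.09e-06) and 2.39-fold lower than calvaria (-1.26, SE 0.15, 0.000148). Calvaria was below ulna by less than 2-fold (-0.69, 0.00531). The second probe set of Il7r read 50.8 and 2.34 in mandible, far apart. It was called lower than in ulna (-3.42, SE 1.00, 0.0179) but not than in calvaria (-2.55, SE 1.00, 0.0976). Cd24a, a small surface protein of precursors that red cells, neutrophils and epithelia carry as well, was lower in mandible, at 5207 and 5108, than in calvaria (6202 and 6645) and ulna (8433 and 8284). The differences were under 2-fold, -0.36 (0.000963) and -0.81 (9.26e-07). Another probe set of Cd24a gave -0.31 (0.00431) and -0.77 (3.21e-06), but the last gave only -0.14 (0.44) and -0.24 (0.11).

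Ly6d was the one B cell gene with its highest signal in mandible and a passing p against both other bones. It encodes a surface protein that marks lymphoid progenitors committed to the B lineage and that squamous epithelium also makes. Its signal was 606 and 519 in mandible, 426 and 449.9 in calvaria and 296 and 281 in ulna, with no overlap. The mandible was 1.8-fold higher than ulna (log2 difference 0.84, SE 0.10, limma adjusted p = 7.09e-05) and 1.25-fold higher than calvaria (0.32, 0.0498), and calvaria was higher than ulna (0.53, 0.00299). The 10 epithelial genes with a probe set summed to 6385 and 6524 in mandible, 211 and 241 in calvaria and 249 and 311 in ulna. Of these 9 were called higher in mandible than in each other bone (11% of all tested genes against ulna and 5.14% against calvaria). Among them was the keratin gene Krt14 (6.40 from ulna). The part of the epithelial genes in the signal of Ly6d was not tested.

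**Figure D3:**
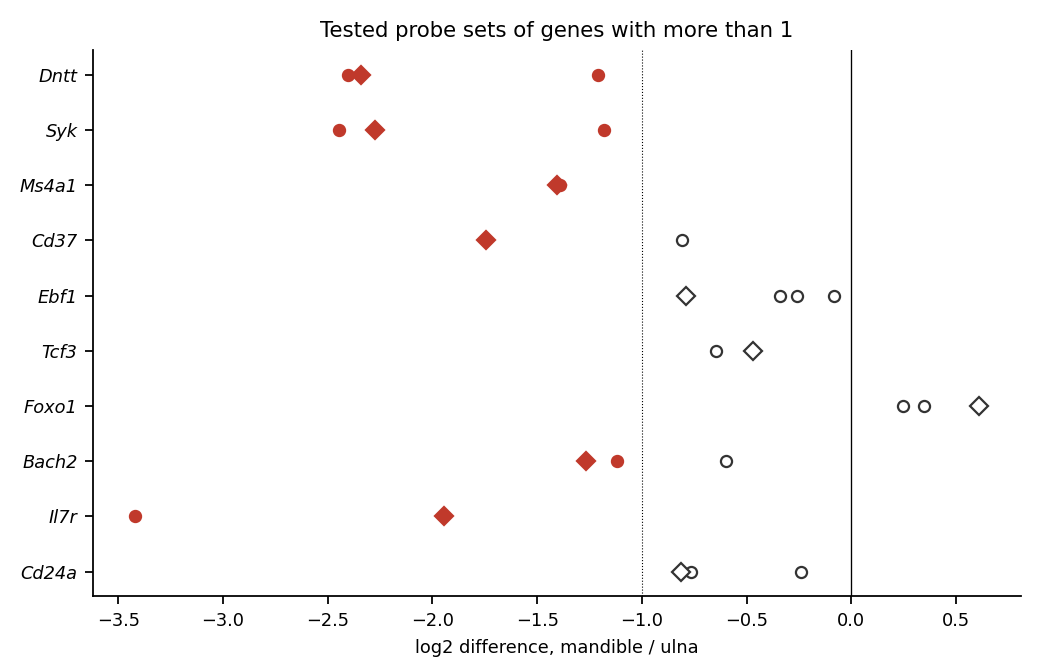
Log2 difference of mandible over ulna for every tested probe set of the 10 B cell genes with more than 1 tested probe set, where diamonds are the probe sets that stand for a gene, circles the others, filled marks are called at an adjusted p under 0.05 and 2-fold, and the dotted line is 2-fold. Dntt, Syk, Ms4a1 and Il7r have filled marks only, while the marks of Ebf1 run from -0.79 to -0.08. A circle of Dntt (-2.40) and a circle of Syk (-2.44) are probe sets that passed the filter on low signal through calvaria and ulna alone.

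Many of the listed genes are also known outside the B lineage, among them Syk, Btk, Ikzf1, Il7r, Cd24a and Ly6d. Without 15 such genes, 16 tested genes were left. The genes taken out included Blnk, Foxo1 and Ly6d, the only tested B cell genes with a positive difference between mandible and ulna. Foxo1 and Ly6d were also the only ones with a positive difference between mandible and calvaria. That all genes left were negative in both comparisons therefore follows from the removal and is no separate support. All of the 16 had a negative log2 difference between mandible and ulna (55.2% of all tested genes), with a median of -1.11, and 9 were called lower (10.9% of all). Against calvaria all 16 were negative too (57.8% of all), with a median of -1.01, and 8 were called lower (4.01% of all). Between calvaria and ulna 6 were positive and 10 negative (46.1% and 53.9% of all tested genes), with a median of -0.05. None was called there, while 8.36% of all were called higher and 4.54% lower.

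The list allows precursor genes (Vpreb1, Igll1, Rag1 and Dntt) to be set beside mature genes (Ms4a1, Cr2 and Fcer2a), each as its difference between sites. Between mandible and ulna the median log2 difference was -1.42 for the precursor genes and -1.41 for the mature genes. The precursor less the mature median, here called the gap, was -0.01. Between mandible and calvaria the medians were -1.32 and -0.78, a gap of -0.54, and between calvaria and ulna they were -0.05 and -0.41, a gap of 0.36. For the gap taken on single arrays, described below, the SD between arrays of a site was 0.42, and no test was made. These medians include Cr2, which was below the filter. With 3 mature genes, each mature median is the value of a single gene. Between mandible and calvaria that gene was Cr2, and in the other comparisons it was Ms4a1. With the tested genes alone, an alternative chosen after seeing the data, the gap was 0.24 between mandible and ulna, -0.48 between mandible and calvaria and 0.77 between calvaria and ulna, with an SD of 0.50 between arrays. The SD belongs to the gap on single arrays and not to the gap between medians of differences, so no gap is judged against it here.

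On single arrays the gap was -0.02 and 0.83 in calvaria, -0.58 and 0.02 in mandible and -0.19 and -0.14 in ulna, on a log2 scale centred on each gene's mean over the 6 arrays. The ulna arrays were close together, and the highest value and the widest spread were in calvaria. Leaving out calvaria replicate 1 moved the gap between calvaria and ulna to 0.89, and leaving out calvaria replicate 2 moved it to 0.10. Between mandible and calvaria the gap was -0.00068 without calvaria replicate 2. Between mandible and ulna it was -0.50 without mandible replicate 2, the array with the low value of Fcer2a.

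**Figure D4:**
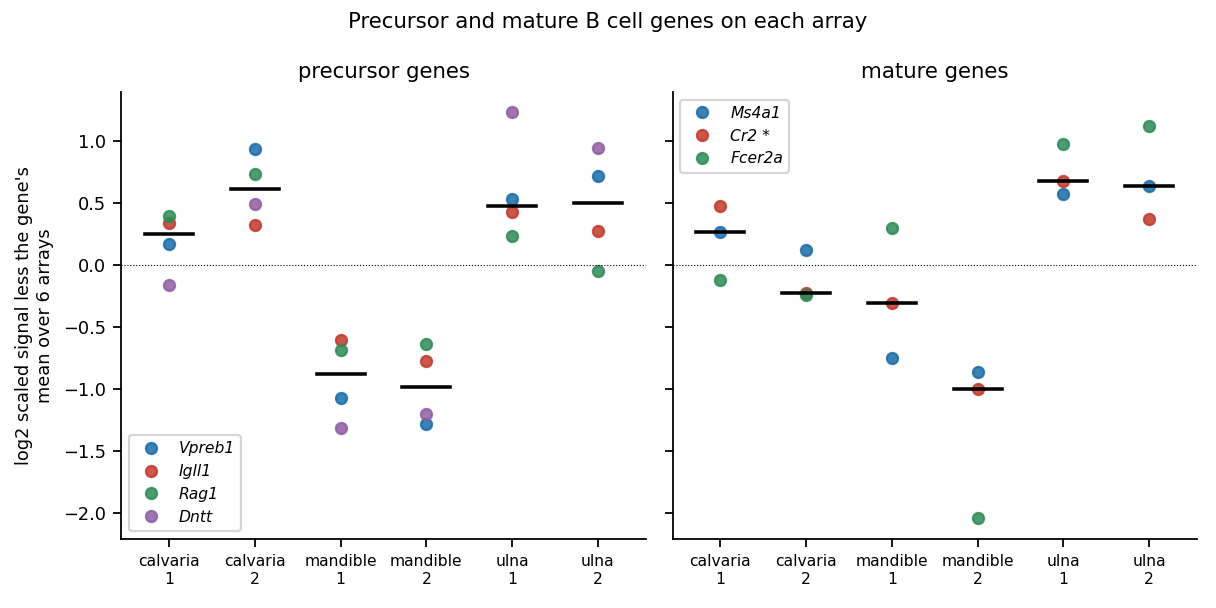
Log2 scaled signal of the precursor genes (left) and mature genes (right) on each of the 6 arrays, less the gene's mean over the arrays, with a bar at the median of each array and a star for the untested Cr2. Both medians are below 0 on both mandible arrays, and calvaria replicate 2 has the widest gap between the panels, 0.83.

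Other genes of the pathway were taken from a second list of 45, of which 43 had a probe set and 41 were tested. Between mandible and ulna 20 were called lower and 3 higher (10.9% and 11% of all tested genes), with a median log2 difference of -0.96. The largest fall was in Fcrl1, an Fc receptor-like protein of B cells (-2.44, SE 0.56, limma adjusted p = 0.00491). Next came Irf8 (-2.15, 2.93e-07), a factor of B and myeloid cells, and E2f2, a cell cycle factor (-2.03, 3.86e-06). Flt3, a cytokine receptor of early progenitors, was lower too (-1.94, SE 0.51, 0.0103). The mandible signals of Fcrl1 (5.95 and 23.6) and Flt3 (25.8 and 8.39) were below the array median, so these ratios are imprecise. Both genes passed the filter through the other bones alone. Sox4 (1.40), Ccnd2 (1.24) and Cd81 (1.13) were the 3 called higher, and they are named here after their values were seen. Between mandible and calvaria 11 of the 41 were called lower (4.01% of all tested genes) and none higher (5.14% of all), with a median of -0.82. Among the 11 were Fcrl1 (-2.27), Flt3 (-1.59) and Myb (-1.54), a factor of progenitors. By the adjusted p alone 23 were lower and 4 higher (16.2% and 10.5% of all tested genes). E2f2 was the only one called between calvaria and ulna, where it was lower (-1.24, 0.000261). Of all tested genes 4.54% were called lower there and 8.36% higher.

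Genes of antibody secretion did not move as a group. Of 8 tested immunoglobulin and plasma cell genes, 2 were called lower in mandible than in ulna (10.9% of all tested genes), Jchain (-2.33) and Mzb1 (-1.30). Another 2 were called higher (11% of all), Sdc1 (2.77) and Prdm1 (1.04), both of which epithelium also expresses. Jchain, the joining chain of secreted antibodies, was called lower in calvaria than in ulna as well (-1.70, limma adjusted p = 1.27e-06), with 847 and 975 against 2531 and 3091. Ighm, the heavy chain of IgM, which B cells and their precursors express, had a signal of 2114 and 1847 in mandible, 3163 and 3181 in calvaria and 3430.3 and 3271 in ulna and was named after its values were seen. Its differences of -0.88 (2.88e-06) and -0.72 (3.77e-05) for the mandible were under 2-fold.

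Signals that feed B cell precursors in the marrow were lower in mandible as well. Il7, the ligand of Il7r, read 12.4 and 6.6 in mandible, 32.4 and 33.3 in calvaria and 32.9 and 41.1 in ulna (-2.14 from ulna, limma adjusted p = 0.00953, and -1.90 from calvaria, 0.0324). It was above the array median on 3 arrays, none of them of mandible, and so passed the filter through the other bones alone. Its lower mandible signal is not independent of that filter. Cxcl12, the chemokine that holds precursors in the marrow, was at 1420.4 and 1399.6 in mandible and 3152 and 3076 in ulna (-1.26, 8.40e-08), with 2220.4 and 2275 in calvaria. Vcam1, an adhesion molecule of stromal cells, was also called lower than in ulna (-1.62), as was the B cell survival factor Tnfsf13b (-1.08). These were 4 of 5 tested niche genes, where 10.9% of all tested genes were called lower. Against calvaria 2 were called lower (4.01% of all), Il7 and Vcam1 (-1.06).

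Neutrophil and erythroid markers were lower in mandible beside the B cell genes. Between mandible and ulna 8 of 13 neutrophil genes were called lower (median log2 difference -1.06), where 10.9% of all tested genes were. Among the 8 were the granule gene Mpo (-1.81) and the cytokine receptor gene Csf3r (-2.15). Called lower too were 12 of 12 erythroid genes (median -1.68), with Ermap (-2.35) the farthest. Of 13 macrophage and dendritic genes 2 were called lower (median -0.55), Flt3 and Itgax (-1.41). That was 15.4% of the list, nearer to the share of all genes. The summed signal of the neutrophil genes ran from 58352 to 58717 in mandible, 72207 to 76999 in calvaria and 85232 to 86604 in ulna, and that of the erythroid genes from 5361 to 5714, 9459 to 9839 and 15456 to 15989. Against calvaria 3 neutrophil genes (median -0.86), 4 erythroid genes (-0.86) and 2 macrophage and dendritic genes (-0.65) were called lower (4.01% of all tested genes). Calvaria was called lower than ulna in 3 erythroid genes (-0.85) and in 1 neutrophil gene, Csf3r (-1.41, median of the list -0.29). Of all tested genes 4.54% were called lower there. By the adjusted p alone, 12 of 12 erythroid and 9 of 13 neutrophil genes were lower in calvaria than in ulna (18.4% of all tested genes). By the same measure 1 neutrophil gene was higher (15.9% of all). Of 6 tested T and natural killer cell genes, 1 was lower in mandible than in ulna (10.9% of all), Cd3d (-2.17). Its mandible signals of 4.71 and 24.8 lay below the array median. Against calvaria 2 were lower (4.01% of all), Thy1 (-1.31) and Gzma (-1.01), and 1 was higher (5.14% of all), Cd8a (1.91). Another 6 with a probe set lay below the filter. The part of marrow content, or of the tooth, muscle and epithelial RNA of the mandible, in the lower signal of the B cell genes was not tested.

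**Figure D5:**
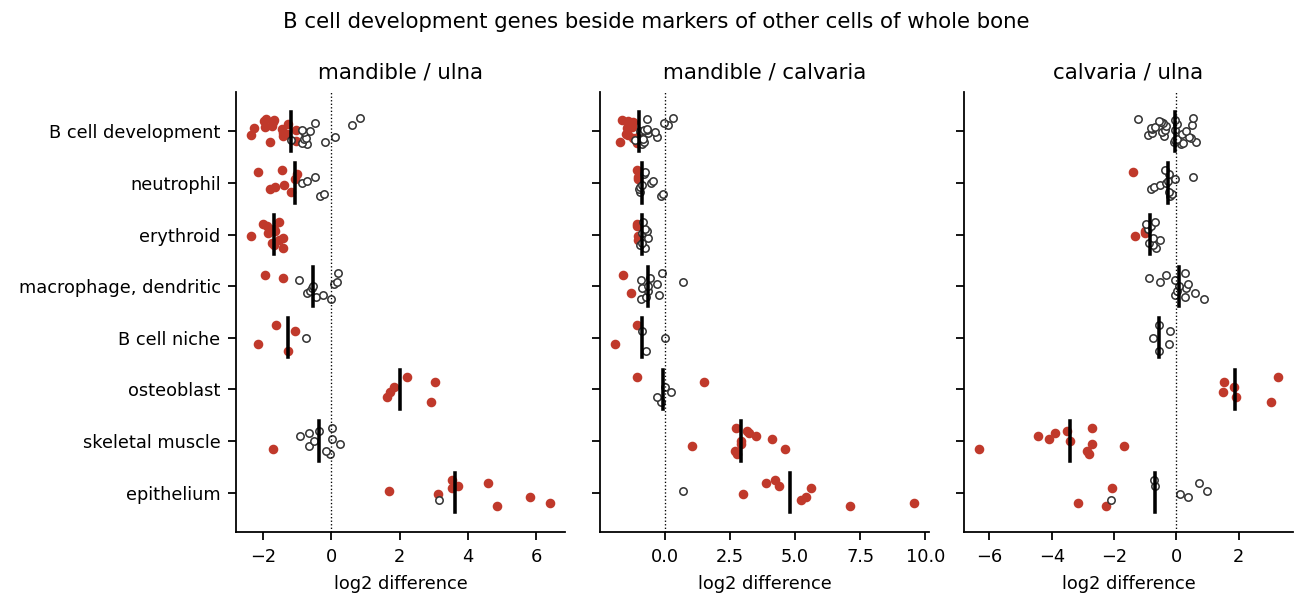
Log2 difference of each tested gene between sites for B cell development genes and for markers of other cells in whole bone, with a vertical bar at the median of each list and filled points for genes called at an adjusted p under 0.05 and 2-fold. The medians of the B cell (-1.18), neutrophil (-1.06), erythroid (-1.68) and niche (-1.26) genes lie left of 0 for mandible over ulna, while that of epithelium lies right of it.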

How the data were processed

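Whole bone of calvaria, mandible and ulna was measured on 6 arrays, 2 for each site, and sites were taken from the labels. The deposited values are signal intensities that the authors computed with MAS5 (version not given in the sources used here) and scaled to a 2% trimmed mean of 100, for 45101 probe sets. The platform annotation, with symbols updated through RefSeq, gave 1 symbol to 34945 probe sets, several to 932 and none to 9160, while 64 control probe sets were dropped.

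Signals were divided by the array's median, after the per chip normalization of the methods, and log2 was taken with no offset. The 25233 probe sets above the array median on at least 2 arrays went into limma 3.58.1 (R 4.3.3), with a mean for each site and variances moderated by eBayes with its trend option (3 residual and 7.67 prior degrees of freedom). Adjustment for multiple tests (Benjamini-Hochberg) covered all tested probe sets, and a call needed an adjusted p under 0.05 and 2-fold. A gene with several tested probe sets was read from the brightest by mean. Means and ratios of low signals are imprecise, since no detection calls were used. Ikzf3, Pax5, Il7, Fcrl1, Flt3 and Cd3d were below the median on both mandible arrays and passed the filter through calvaria and ulna alone. Their lower values in mandible are therefore not independent of the filter. Among the called B cell genes, each read from its brightest probe set, only Ikzf3 was such a gene. The same limit holds for another probe set of Dntt and another of Syk, both called lower in mandible than in ulna. The fit was tested on simulated data.

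All members were open to naming, and from other lists up to 4 called genes with the largest difference and arrays that did not overlap, or, with no call, the 2 brightest by mean. The members and lists were chosen with earlier results of these data known. Alternatives were other scalings, filters, an offset, no moderation, no trend, a fit to only the 4 arrays compared, the mean over probe sets, the adjusted p alone, a replicate block, and each array left out in turn. Promoter windows were those of RefSeq on GRCm38.p6, which says nothing of the build behind the array. Figures come from matplotlib 3.10.9 (Python 3.11.15).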

Additional observations from a re-analysis of the deposited data

How the results depend on the processing

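Across all alternatives no called difference of a B cell gene changed its direction. Values as deposited, quantile normalization and 75th percentile scaling kept 14 of 16 calls between mandible and ulna and 12 of 14 between mandible and calvaria, without Igll1 and Bank1, and without Igll1 and Ms4a1. Without moderation of the variances 7 of the 14 calls between mandible and calvaria were left, and Pou2af1, Spib, Syk, Rag1, Vpreb1, Dntt and Ikzf3 were lost (adjusted p from 0.0536 to 0.139). Between calvaria and ulna 1 gene, Fcer2a, was called with only the 4 arrays of the comparison. The adjusted p alone gave 12 genes between calvaria and ulna, 26 between mandible and ulna and 24 between mandible and calvaria. Leaving out 1 array gave 0 to 2 calls between calvaria and ulna (Syk and Dntt without calvaria replicate 2, Btk without ulna replicate 1, Dntt without ulna replicate 2), 14 to 16 between mandible and ulna and 12 to 14 between mandible and calvaria. The gap of precursor less mature genes ranged from 0.10 to 0.89, from -0.50 to 0.0105 and from -0.94 to -0.00068 in these comparisons, and became 0.77, 0.24 and -0.48 with the tested genes alone, an alternative chosen after seeing the data.

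No pairing of arrays by replicate number was seen, since the differences between numbers 1 and 2 correlated at -0.0123 to 0.00585 between sites. These correlations cannot tell whether arrays with the same number share animals, which is not given in the sources used here. With the replicate block 0, 16 and 14 genes were called, all shared with the fit without it.

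Some uncalled differences near 0 changed sign. Between calvaria and ulna, with values as deposited, quantile normalization and 75th percentile scaling in turn, Blk became 0.0254, 0.0027 and 0.0051 and Igll1 0.0552, 0.0692 and 0.0349. Pax5 became 0.0249 as deposited and 0.0046 with the 75th percentile, Spib 0.0161 as deposited and 0.0235 with quantiles, and Vpreb1 0.0042 and 0.0177 with the same settings. Tcf3 between mandible and calvaria became 0.0118, 0.0301 and 0.0193. Leaving out 1 array, the range between calvaria and ulna was -0.0471 to 0.11 for Bach2, -0.11 to 0.0053 for Blk, -0.10 to 0.15 for Ebf1, -0.10 to 0.0550 for Igll1, -0.16 to 0.0537 for Pax5, -0.21 to 0.0928 for Spib and -0.45 to 0.31 for Vpreb1. It was -0.0205 to 0.23 for Blnk between mandible and ulna. Between mandible and calvaria it was -1.86 to 0.48 for Fcer2a, -0.0668 to 0.29 for Foxo1 and -0.15 to 0.0883 for Tcf3. The cause of these changes was not tested. With 2 arrays for each site, genes near the array median, such as Fcer2a, Ikzf3 and Pax5, had the widest intervals.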
